A study of Caenorhabditis elegans with 7 samples.

Results

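C23G10.1, C23G10.10, Y38H6C.7 and Y38H6C.8 are 4 Caenorhabditis elegans genes that lie as 2 neighbouring pairs, and all 4 had their lowest ratio in unheated animals and a much higher one from 2 h at 30 °C onward. They were chosen by their measured rise on these same arrays, so their values are a description and carry no test. They are 4 of the 7534 genes that have a named spot on the array, and each has 1 spot with a value on all 7 arrays. The animals were adults of strain CF512, cultured at 25 °C, where this strain is sterile, and then shifted to 30 °C. As background, CF512 is known to carry temperature-sensitive mutations of fer-15 and fem-1, which the labels do not list. Total RNA was taken at 0, 2, 4, 6, 8, 10 and 12 h, with 1 two-colour array per time, on which the worm RNA was hybridised together with a reference sample, HS1, that all arrays share. All heated groups share the strain, the stage and the earlier culture at 25 °C. No unheated animals were followed over the same hours, so time at 30 °C and time itself cannot be told apart.

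Animals moved to a damaging temperature raise a small set of transcripts within hours. The best known are controlled by the transcription factor HSF-1 and encode chaperones, among them HSP70 proteins and the small heat shock proteins of the hsp-16 family, which hold unfolded proteins and help them refold. Many worm genes carry only a sequence name, which joins the genomic clone on which the gene was found to a number, so that C23G10.1 and C23G10.10 come from clone C23G10. The gene table used here lists C23G10.1 and C23G10.10 as protein-coding genes on chromosome III, Y38H6C.7 as a pseudogene on chromosome V and Y38H6C.8 as a protein-coding gene beside it, with no function for any of them. Within each pair the 2 genes are direct neighbours in the WBcel235 gene order. No source used here names the build behind the spots, so no coordinates are printed. Spot sequences were not used here, so whether transcripts of a neighbour bind the same spot was not tested.

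Each value below is a log ratio of worm RNA to the reference after each array was centred on its median, taken as log base 2. It gives changes of a gene between times and no absolute level. Neither the base nor the direction of the ratio is stated. Worm RNA over reference was taken as the likely direction from the HSP70 genes F44E5.4 and F44E5.5, which at 0 h had the lowest value that the file allows (-4.98 after centring) and stood at 0.91 and 0.83 at 2 h. With the sign turned, every change given here changes sign. Between 16143 and 16972 spots had a value on an array. The 0 h array had the widest spread of ratios over all spots, with an SD of 0.634 against 0.497 to 0.585 on the heated arrays. It is also the only unheated array, and what part its spread has in the differences from 0 h was not tested beyond the rescaled values given further on.

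C23G10.1 had a ratio of -4.36 at 0 h, -0.06 at 2 h, 0.28 at 4 h, 0.84 at 6 h, 1.12 at 8 h, 0.31 at 10 h and 0.53 at 12 h. The unheated array was lowest, the values climbed at each time up to 8 h, and the last 2 arrays lay below that peak but above those of 2 and 4 h. C23G10.10 stood at -2.67 at 0 h, then at -0.04, 0.32, 0.67 and 0.62 at 2, 4, 6 and 8 h, and at -0.32 at both 10 and 12 h. Its highest values were those at 6 and 8 h, and its 2 latest arrays were the lowest of the heated ones. The pseudogene Y38H6C.7 stood at -4.77 at 0 h, 0.16 at 2 h, -0.43 at 4 h, 0.59 at 6 h, 0.70 at 8 h, 0.58 at 10 h and 0.70 at 12 h. After a dip at 4 h its last 4 values stayed within a narrow band. Y38H6C.8 stood at -3.12 at 0 h, -0.63 at 2 h, -0.12 at 4 h, 0.32 at 6 h, 0.65 at 8 h, 0.45 at 10 h and 0.58 at 12 h. It climbed at each time up to 8 h and then held. For all 4 genes the 0 h array lay below every heated array, and none of the 4 reached a limit of the file. Of 13369 features measured on every array, 25.8% were also lowest at 0 h, so a lowest value at 0 h is common.

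**Figure D1:**
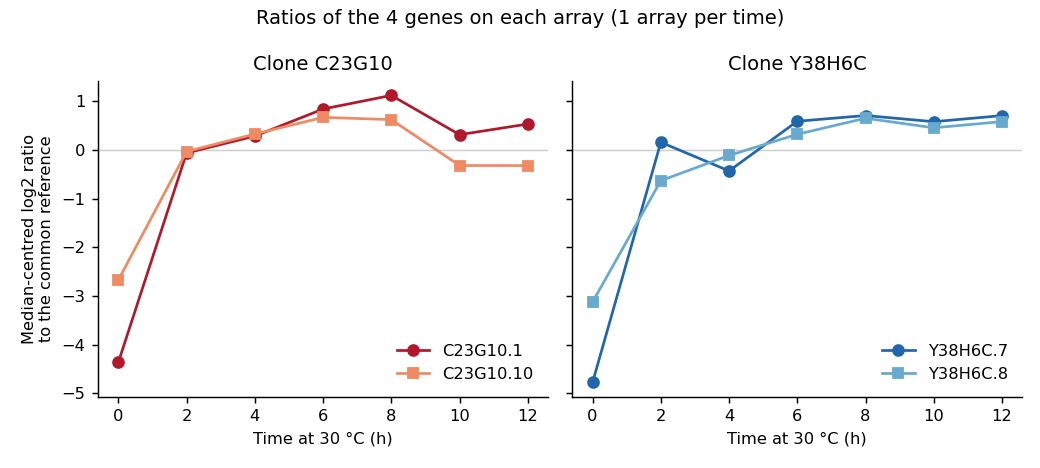
Median-centred log2 ratio to the common reference (vertical axis) against hours at 30 °C (horizontal axis), 1 point per array, with C23G10.1 and C23G10.10 on the left and Y38H6C.7 and Y38H6C.8 on the right. Each gene is lowest at 0 h, between -4.77 and -2.67, and lies between -0.63 and 1.12 on every heated array.

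The first question was when each gene became higher than at 0 h. All 4 were past 1 log2 unit above 0 h at 2 h, the first time sampled, and stayed past it on all 6 heated arrays. Over all features measured on every array, 1.08% were 1 log2 unit or more above 0 h on all 6 heated arrays and 0.337% were 2 log2 units or more above. The members were picked for this, so nothing is read from their count. The difference between 2 h and 0 h was 4.93 log2 units for Y38H6C.7, or 30.5-fold if the base is 2, and 4.30 for C23G10.1, or 19.7-fold. The other gene of each pair had a smaller first step, of 2.64 (6.22-fold) for C23G10.10 and 2.49 (5.62-fold) for Y38H6C.8. Over 15461 features the middle 95% of this step ran from -1.52 to 1.20. On the log2 scale, the first 2 h held 89.99% of the whole change from 0 h to the peak for Y38H6C.7, 78.4% for C23G10.1, 79.0% for C23G10.10 and 66.0% for Y38H6C.8. The interval has no array between its ends, so the order of the 4 genes within it is unknown.

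The mean of the 6 heated arrays lay above the 0 h array by 5.16 log2 units for Y38H6C.7 (SE 0.41) and 4.86 for C23G10.1 (SE 0.40). For Y38H6C.8 it lay 3.33 above (SE 0.44) and for C23G10.10 2.83 above (SE 0.41). These errors are limma's, from the spread of the 6 heated arrays drawn toward a value shared by all features. In order of size these 4 changes were ninth, 15th, 33rd and 50th of 13369 features. The HSP70 genes F44E5.4 and F44E5.5 had changes of at least 5.26 and 5.25, lower bounds because of their 0 h value. In limma's fit to all features, 0.681% were called higher and 0.957% lower at an adjusted p under 0.05, and the 4 genes were among those called, which follows from how they were picked. Of the features called, 41.6% were higher, and 53.4% with quantile normalization. Quantile normalization, which gives all arrays the same spread, gave 4.10 for Y38H6C.7, 3.84 for C23G10.1, 2.74 for Y38H6C.8 and 2.43 for C23G10.10.

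The next question was when each gene was highest and how far it came down. C23G10.1, Y38H6C.7 and Y38H6C.8 had their highest ratio at 8 h and C23G10.10 at 6 h. Of the 91 features called higher on the heated arrays, 15 were highest at 8 h and 15 at 6 h. The order of neighbouring times at the top is not settled, since C23G10.10 was only 0.05 lower at 8 h than at 6 h, and Y38H6C.7 stood at 0.704 at 8 h and 0.702 at 12 h. As a measure of technical spread, genes with several named spots were used. Of 316 such genes, 176 had at least 2 spots with a value on every array, and the first 2 were compared. A step between neighbouring heated arrays differed between the 2 spots of a gene by a median of 0.38 log2 units (95th percentile 1.32). Every step of the 4 genes between neighbouring heated arrays was smaller than that 95th percentile. The 2 spots of a gene share each array, so what differs between arrays is left out of that percentile. From 2 h to 8 h the ratio went up by 1.28 for Y38H6C.8, 1.18 for C23G10.1, 0.66 for C23G10.10 and 0.55 for Y38H6C.7, where the middle 95% of 15259 features ran from -1.26 to 1.25.

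After 8 h the values of the pairs took different courses, which were not tested against each other. From 8 h to 10 h the ratio changed by -0.94 for C23G10.10 and by -0.81 for C23G10.1, against -0.13 for Y38H6C.7 and -0.20 for Y38H6C.8. The steps of the C23G10 genes lay at the 4.38 and 6.45 percentiles of 15418 features, and those of the Y38H6C genes at the 38.7 and 32.9 percentiles. This step starts at the peak of C23G10.1, Y38H6C.7 and Y38H6C.8 and near that of C23G10.10. A fall was thus built into the choice of start, which does not hold for all features, and nothing is read from the percentiles. From 10 h to 12 h C23G10.1 went back up by 0.22 and C23G10.10 stayed level. At 12 h C23G10.10 was 0.99 below its peak and C23G10.1 was 0.59 below, while Y38H6C.7 and Y38H6C.8 were within 0.07 of theirs. Even so, every gene was still far above 0 h at 12 h, by 5.48 log2 units for Y38H6C.7, 4.89 for C23G10.1, 3.70 for Y38H6C.8 and 2.35 for C23G10.10. Each of these times rests on a single array.

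**Figure D2:**
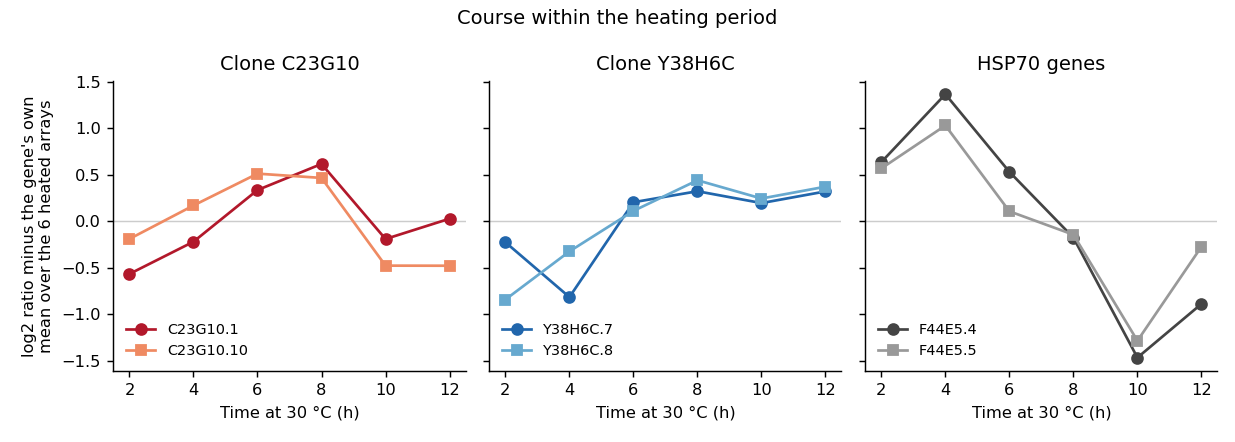
Log2 ratio minus the gene's own mean over the 6 heated arrays (vertical axis) against hours at 30 °C (horizontal axis), 1 point per array, for the C23G10 genes, the Y38H6C genes and the HSP70 genes F44E5.4 and F44E5.5. The C23G10 genes peak at 6 or 8 h and are lower at 10 h, the Y38H6C genes keep their level after 8 h, and the HSP70 genes peak at 4 h and reach their lowest heated value at 10 h.

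The mean of the 8, 10 and 12 h arrays minus that of the 2, 4 and 6 h arrays was 0.70 for Y38H6C.8 (SE 0.25), 0.56 for Y38H6C.7 (SE 0.26), 0.30 for C23G10.1 (SE 0.29) and -0.33 for C23G10.10 (SE 0.30). All 4 values were smaller in size than 1.04, the 95th percentile by which this quantity differed between 2 spots of a gene. The 2 spots share each array, so that percentile leaves out what differs between arrays and does not gauge a change over time. Without the 4 h array the value of Y38H6C.7 was 0.29. For Y38H6C.8 the 3 late values all lay above the 3 early ones. Those of Y38H6C.7 overlapped, since 10 h (0.58) lay just below 6 h (0.59). How many of all features have late values that lie apart from the early ones was not counted, so nothing is read from this. In the same fit over 13478 features limma called 0%, with 1467 at an unadjusted p under 0.05. The HSP70 genes F44E5.4 and F44E5.5 had late minus early values of -1.69 (SE 0.35) and -1.13 (SE 0.35), and each was highest at 4 h. Between 6 h and 10 h their ratios changed by -1.995 and -1.39, where that of C23G10.10 changed by -0.99, that of C23G10.1 by -0.53, that of Y38H6C.7 by -0.01 and that of Y38H6C.8 by 0.13. These are values set side by side, and the difference between the courses was not tested.

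Within the 91 features called higher on the heated arrays, the change from 8 h to 12 h had a median of -0.07 and ran from -1.34 to 1.07. C23G10.10, with -0.94, had only 2 of the 91 below it, and C23G10.1, with -0.59, had 9. Y38H6C.7 (0.00) and Y38H6C.8 (-0.07) lay near the middle, with 55 and 46 features below them. This interval starts at the peak of C23G10.1, Y38H6C.7 and Y38H6C.8, so their change over it could not be above 0. Measured from each feature's own peak to 12 h, the median of the 91 was -0.37, and C23G10.10 (-0.99) had 10 below it, C23G10.1 (-0.59) 25, Y38H6C.8 (-0.07) 73 and Y38H6C.7 (0.00) 77. On the late minus early value the 2 C23G10 genes lay apart, with 17 of the 91 below C23G10.10 and 67 below C23G10.1, against 78 and 80 for Y38H6C.7 and Y38H6C.8.

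The members of a pair can also be compared with each other over time. A spot's ratio depends on how much of its own transcript the reference holds, so only changes in the difference between 2 genes can be read. C23G10.1 minus C23G10.10 was -1.69 at 0 h, -0.03 at 2 h, -0.04 at 4 h, 0.17 at 6 h, 0.50 at 8 h, 0.63 at 10 h and 0.85 at 12 h. After the step between 0 and 2 h this difference grew from 4 h on at every time. Its 3 late values ran from 0.50 to 0.85 and its 3 early ones from -0.04 to 0.17. How often the values of other pairs lie apart in this way was not counted, so nothing is read from it. The mean of the difference was 0.63 higher late than early, and between 0.53 and 0.71 higher when any 1 heated array was left out. Each gene has 1 spot. For the 176 genes with 2 spots measured on every array, the late minus early quantity differed between spots by a median of 0.32 and a 95th percentile of 1.04. The shift within the C23G10 pair is thus above that median and inside the 95% range.

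Y38H6C.7 minus Y38H6C.8 was -1.65 at 0 h, 0.79 at 2 h, -0.32 at 4 h, 0.27 at 6 h, 0.06 at 8 h, 0.13 at 10 h and 0.12 at 12 h. The pseudogene was ahead of its neighbour at 2 h, behind it at 4 h, and from 8 h on the difference moved by less than 0.1. Late minus early it was -0.15, with late values (0.06 to 0.13) that lay inside the range of the early ones (-0.32 to 0.79). Without the 2 h array it was 0.13, so its sign rests on that array. Whether the 2 pairs differ in this respect was not tested.

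**Figure D3:**
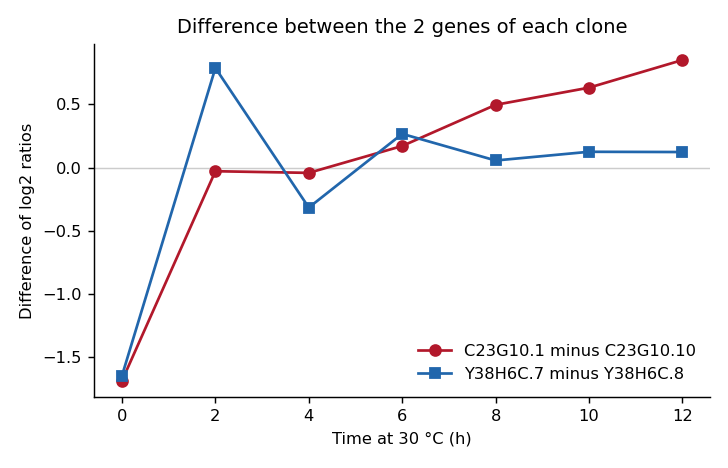
Difference of the log2 ratios of the 2 genes of each clone (vertical axis) against hours at 30 °C (horizontal axis), 1 point per array. C23G10.1 minus C23G10.10 grows from -0.04 at 4 h to 0.85 at 12 h, while Y38H6C.7 minus Y38H6C.8 goes from -1.65 at 0 h to 0.79 at 2 h and -0.32 at 4 h, and lies between 0.06 and 0.13 from 8 h.

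Other genes of the 2 clones were then examined, since they share the neighbourhood but were not picked for their values. Of 11 further genes of clone C23G10 in the gene table, 6 had a named spot and all 6 were measured on every array. Of 24 further genes of Y38H6C, 10 had a named spot and 6 were measured on every array. Of these 12 genes, 0 were called higher and 0 lower in limma's comparison of heated against baseline, beside 0.681% and 0.957% over all features, and their median change was 0.45 (range -1.44 to 1.30) against 0.05 over all features. At this share of calls, 0 of 12 is near the background. C23G10.2, directly before C23G10.1, stood 0.28 higher (SE 0.34, limma adjusted p = 0.718), and C23G10.11, directly after C23G10.10, stood 0.43 higher (SE 0.50, limma adjusted p = 0.694). Y38H6C.9, the nearest measured gene after Y38H6C.8, had the highest change of the 12 at 1.30 (SE 0.45, limma adjusted p = 0.184), with ratios of -1.05 at 0 h, -0.72 at 2 h and 0.48 at 4 h, so that most of its difference lay between 2 and 4 h. Y38H6C.15 followed with 1.18 (SE 0.32, limma adjusted p = 0.107).

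The lowest of the 12 was ugt-66 of clone C23G10, a gene for a UDP-glucuronosyltransferase, an enzyme class that links sugar acids to foreign and spent compounds. Its ratio went from 0.76 at 0 h to -1.18 at 12 h, with a heated change of -1.44 (SE 0.48, limma adjusted p = 0.168). Late against early the 13 measured genes of the 2 clones had a median of -0.15 against 0.01 over all features, and since 0% of all features were called there, the absence of a call says nothing about them. Of the 20 genes within 5 places of a member, 7 had a named spot, 6 were measured on every array, and 5 of these 6 are among the 12 genes above. Against 0 h, 0 of the 6 were called, beside 0.681% higher and 0.957% lower over all features, with changes from 0.17 (T12A2.21) to 1.30 (Y38H6C.9). Directly before Y38H6C.7 lies the pseudogene dct-10 and directly after Y38H6C.8 the F-box pseudogene fbxa-149, neither with a named spot, so how far the high ratios extend past the Y38H6C pair is unknown here.

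**Figure D4:**
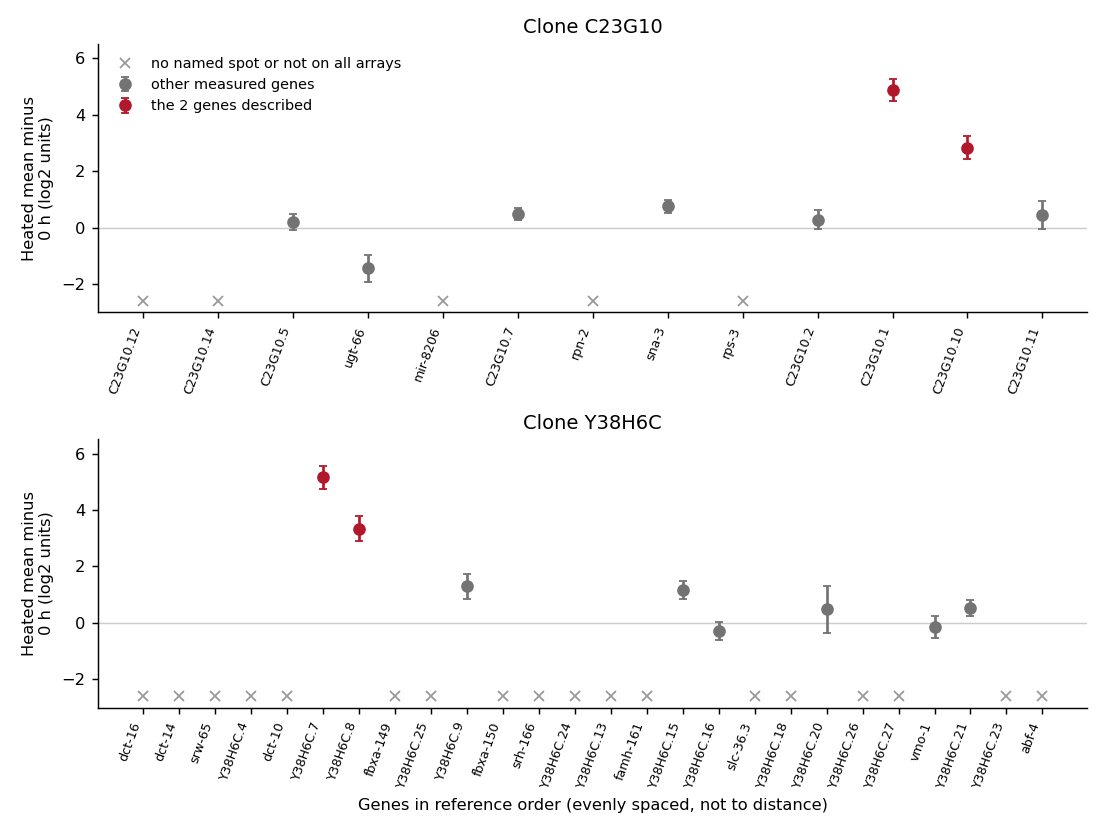
Mean of the 6 heated arrays minus 0 h in log2 units (vertical axis, bars are the standard error of limma's fit) for the genes of clones C23G10 and Y38H6C in reference order (horizontal axis, evenly spaced). The 4 genes described lie between 2.83 and 5.16, the 12 other measured genes lie between -1.44 and 1.30, and crosses mark genes with no named spot or no value on some array.

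To see how often neighbours shared such a change, all pairs of genes that are direct neighbours in the gene order and both measured on every array were taken, 1296 in all. A limit of 2 log2 units was chosen after the values were seen. Of 5315 named genes, 45 were higher by that much on the heated arrays, and 28 of the 1296 pairs held at least 1 of them. In 7 pairs both genes were past the limit. The C23G10 and Y38H6C pairs are 2 of these 7, which follows from how they were picked. The other 5 were F44E5.4 with F44E5.5, Y46H3A.4 with Y46H3A.5, T27E4.1 with F21C10.10, T06E8.2 with F57A8.1, and C06B3.6 with C06B3.7. Y46H3A.4 is 2 places from the small heat shock gene hsp-16.41 and T27E4.1 is 5 places from hsp-16.11. F57A8.1, C06B3.7 and Y38H6C.7 are far from such genes, at 357, 227 and 2301 places from the nearest one on their chromosome. In the Y46H3A pair the changes were 4.22 and 2.14, and in the T06E8.2 and F57A8.1 pair 2.06 and 4.90, so a large and a smaller change side by side, as in C23G10.1 and C23G10.10, were found elsewhere too.

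Across the 6 heated arrays, the correlation between the 2 genes was 0.64 for the C23G10 pair and 0.71 for the Y38H6C pair. It had a median of 0.09 over the 1296 pairs and was 0.36 to 0.95 in the other 5. Only 28 of the 1296 pairs hold a gene past the limit, so this median is no yardstick for raised genes. Between members of different clones the correlation ranged from -0.09 to 0.78, so a value above those of both pairs also occurred without a shared clone. Genes on the same 6 arrays share array effects, and these values are a description. The late minus early shift of the difference within a pair was larger than the 0.63 of the C23G10 pair, in size, in 18.2% of the 1296 pairs, and larger than the 0.15 of the Y38H6C pair in 72.8%. Most of the 1296 pairs hold no raised gene, so these shares are no yardstick either. In the other 5 pairs with both genes past the limit, the shift ran from 0.01 to 0.55 in size. That of the C23G10 pair was thus larger than in any of these 5, and that of the Y38H6C pair lay within their range. Whether the pairs differ in this was not tested.

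**Figure D5:**
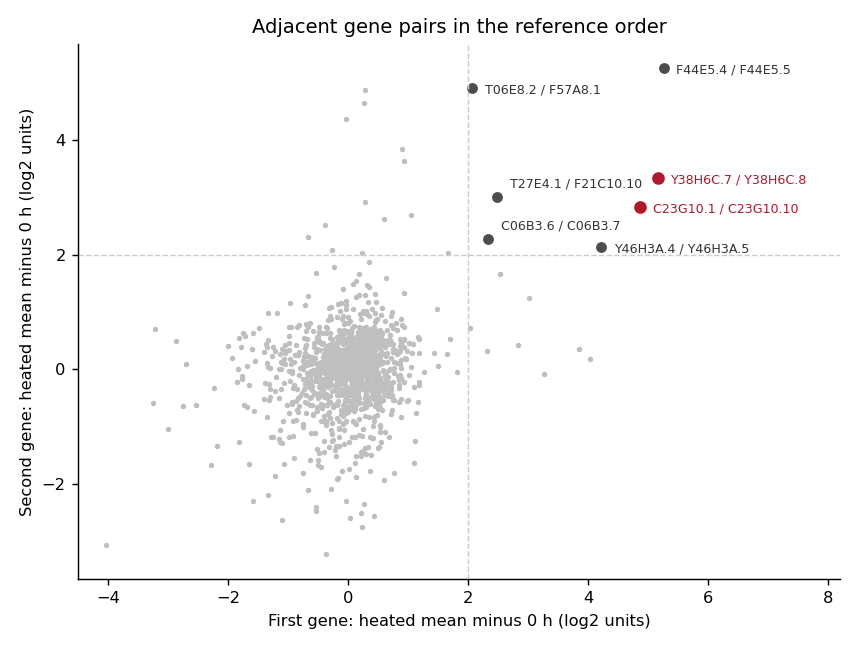
Mean of the 6 heated arrays minus 0 h in log2 units for the first gene (horizontal axis) and the second gene (vertical axis) of 1296 adjacent gene pairs, 1 point per pair. The dashed lines mark 2 log2 units, and the 7 labelled pairs past both lines include C23G10.1 with C23G10.10 and Y38H6C.7 with Y38H6C.8 in red.

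Likeness to other genes was measured by Pearson's correlation over the 7 arrays among 426 named genes with a range of 2 log2 units or more. The single low 0 h value dominates these correlations, and arrays at successive times are not replicates. The 5 genes most like C23G10.1 were F57A8.1 (0.98), Y38H6C.7 (0.98), T27E4.1 (0.98), C06B3.7 (0.98) and Y17D7C.2 (0.98). For C23G10.10 they were C37H5.5 (0.98), Y17D7C.2 (0.97), its neighbour C23G10.1 (0.96), F57A8.1 (0.96) and Y46H3A.4 (0.95). Those of Y38H6C.7 were dap-1 (0.98), C23G10.1 (0.98), the tRNA pseudogene T05H4.t1 (0.98), the pseudogene C01G10.13 (0.98) and M01H9.3 (0.98). C01G10.13 (0.99), dpsm-1 (0.99), T05H4.t1 (0.99), C06B3.7 (0.99) and dap-1 (0.99) were closest to Y38H6C.8. The 2 Y38H6C genes thus had 3 of their 5 in common and the 2 C23G10 genes 2 of 5. These lists depend on the setting. With Spearman's rank correlation 0 of the 5 stayed for C23G10.1, 3 for C23G10.10, 1 for Y38H6C.7 and 1 for Y38H6C.8. Without the range minimum 3, 2, 4 and 4 stayed, in the same order. Of the genes listed, F57A8.1 went from -4.58 at 0 h to a peak of 1.24 at 6 h and 0.30 at 12 h. C01G10.13 went from -4.01 to 0.98 at 10 h and 0.79 at 12 h. These are examples, and the lists did not split by clone or course. C06B3.7 was listed for both C23G10.1 and Y38H6C.8, and C23G10.1 for Y38H6C.7. T27E4.1, listed for C23G10.1, stood at 0.68 at 8 h and 0.64 at 12 h.

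On the 6 heated arrays alone the closest genes were others, and for C23G10.1, Y38H6C.7 and Y38H6C.8 none of the 5 was among those named above for that gene. C23G10.1 was then nearest to F33H2.3 (0.95), whose ratio also peaked at 8 h (0.75) and was lower at 10 h (-0.38). C23G10.10 was nearest to try-12 (0.90), a gene named for the trypsin-like proteases, whose ratio was highest at 0 h (1.41), so its likeness holds only within the heating period. Y69A2AR.19 (0.89), second for C23G10.10, started from -2.54 at 0 h, stood at 0.87 at 6 h and had come down to -0.95 at 10 h. Y38H6C.7 was nearest to H19M22.4 (0.96), a non-coding RNA gene that shared its dip at 4 h (-2.25), and next to F46A8.4 (0.96). Y38H6C.8 was nearest to C50F4.6 (0.98) and M01E5.2 (0.97), whose ratio climbed from -2.13 at 2 h to 1.93 at 12 h. On these arrays the correlation between members of different clones ranged from -0.09 (C23G10.10 with Y38H6C.7) to 0.78 (C23G10.1 with Y38H6C.8).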

How the data were processed

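The deposited file gives a log ratio per spot and array, with some cells blank, and it is taken here as log2, an assumption. The base, scanner, background correction, normalization and filter behind blank cells are not stated in the labels or the file. Spot intensities were not used here, so signal over background is unknown, and precision is limited by having 7 arrays. Of 19200 spots, 7900 carry 1 gene name from the platform annotation, and 7872 of these were matched to the WBcel235 gene table by gene number for current names and gene order. Spots of 1 gene were averaged and each array was centred on its median. With limma 3.58.1 under R 4.3.3, lmFit and eBayes were run on all features measured on every array of a comparison, with Benjamini-Hochberg adjustment and a threshold of 0.05. The fits were also run on simulated data with the residual spread of the real fits, and nothing is read from that here. The comparisons were the 6 heated arrays against 0 h, and 8 to 12 h against 2 to 6 h. No time has a replicate, so errors come from the spread of arrays of different times, which eBayes draws toward a value shared by all features. The lone 0 h array is taken to vary as the heated ones do. The members and gene lists were chosen with earlier results of these data known. The genes named are the members, the 5 most like each, the genes of lists past the threshold or else those with the largest changes, and the HSP70 pair, and others were chosen after their values were seen. Of 18 heat shock genes listed, F44E5.4 and F44E5.5 had a named spot and were measured, and both passed. Over all features 0.681% were called higher. The direction of the ratio was taken from F44E5.4 and F44E5.5, so nothing is read from their calls. Lists by protein similarity and promoter motifs were not analysed here.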

Additional observations from a re-analysis of the deposited data

How the results depend on the processing

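With quantile normalization 47 features were higher and 41 lower against 0 h, and with equal median absolute deviations 44 and 60, against 91 and 128. The higher share of calls thus went from 41.6% to 53.4% with quantile normalization. With any 1 heated array left out, 46 to 158 were higher and 64 to 273 lower. The counts were 158 and 273 without 2 h, 51 and 64 without 6 h, and 46 and 64 without 8 h. No feature was called late against early in any setting. The change against 0 h with quantile normalization was 3.84 for C23G10.1, 2.43 for C23G10.10, 4.10 for Y38H6C.7 and 2.74 for Y38H6C.8. With equal median absolute deviations it was 4.30 for C23G10.1, 2.49 for C23G10.10, 4.52 for Y38H6C.7 and 2.91 for Y38H6C.8. With any 1 heated array left out it was 4.74 to 4.98 for C23G10.1, 2.72 to 2.92 for C23G10.10, 5.09 to 5.32 for Y38H6C.7 and 3.24 to 3.50 for Y38H6C.8. Late minus early values ranged likewise from 0.07 to 0.54 for C23G10.1, -0.64 to -0.15 for C23G10.10, 0.29 to 0.80 for Y38H6C.7 and 0.46 to 0.93 for Y38H6C.8. The peak of Y38H6C.7 moved to 12 h without centring and with quantile normalization, and the other peaks kept their time under the scalings tried. F44E5.4 lost its call with equal deviations (limma adjusted p = 0.0612), without 6 h (0.0574) and without 8 h (0.0572). The cause of these shifts was not tested. No paired analysis was possible because a single array stands for each time, and the 0 h array cannot be left out of the comparison with it. The motif alternative was not run.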
